A study of Mus musculus with 42 samples.

Results

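The comparison described here set undifferentiated W9.5 mouse embryonic stem cells against the same line on day 2 of differentiation into embryoid bodies, a stage labelled here as epiblast-like. Members were chosen by time point: both 0 h libraries, and the 42, 48 and 54 h libraries as 1 group, 8 of the 42 libraries of a course sampled every 6 h from 0 to 120 h. W9.5 is a single cell line of the 129X1/SvJ background. According to the study's methods the cells were of low passage and came from biological duplicate cultures, labelled A and B. The 0 h group held 2 libraries of ES cells harvested at the induction of differentiation, and the day 2 group held 6 libraries, 1 from A and 1 from B at each of the 3 time points. No genotype or drug differed between the groups, but the time elapsed, the withdrawal of LIF and the change to aggregate culture came together and cannot be told apart in this design. The libraries of A and of B were each drawn from 1 differentiating course, so the 6 day 2 libraries share 2 sources of cells. In bulk RNA, fewer cells of a type and less RNA per cell likewise cannot be told apart.

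Mouse ES cells grown with leukaemia inhibitory factor (LIF) resemble the epiblast of the blastocyst before implantation, and are held in this naive state by a set of transcription factors together with STAT3, which LIF activates. When LIF is withdrawn, ES cells lose the naive factors and pass through a formative state resembling the epiblast just after implantation, in which FGF signaling through ERK, new DNA methylation and the factor OCT4 (encoded by Pou5f1) are active, before they take up germ layer fates. Embryoid bodies are floating aggregates in which the transition happens without added inducers.

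The 8 libraries held from 21819255 to 40466606 counted reads on 14296 genes, with a median of 30031318, and 3 reads corresponded to between 0.076 and 0.131 CPM. All values are log2 CPM, where CPM is the count scaled to library size after normalization by the authors, differences are day 2 minus 0 h on the log2 scale, and errors of differences are standard errors from limma. The A and B libraries of a time point differed by a median over all genes of 0.117 (0 h), 0.274 (42 h), 0.125 (48 h) and 0.106 (54 h), so that the 42 h pair was the loosest of the 4. Of the 14296 genes, 5538 (38.7%) passed an adjusted p below 0.0001, 2719 (19%) higher and 2819 (19.7%) lower at day 2. Of these, 3317 (23.2%) differed over 2-fold, and 1387 (9.70%) were that much higher and 1930 (13.5%) that much lower, 553 and 769 were past 4-fold, and 265 and 289 past 8-fold. The median difference over all genes was 0.01 and the median absolute difference 0.59, against a median SE of 0.14. In 4560 genes (31.9%) all 6 day 2 libraries lay above both 0 h libraries, and in 4718 (33.0%) all 6 lay below, and 42 of the genes called had libraries that overlapped. When libraries were scaled by their total counted reads instead, the median over all genes moved to -0.19, and 1846 genes were called higher and 3676 lower. Without the 0 h A library 3586 genes were called and without the 0 h B library 3529, and the 8 libraries fitted alone gave 3036. Directions below are given relative to the authors' scaling.

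**Figure D1:**
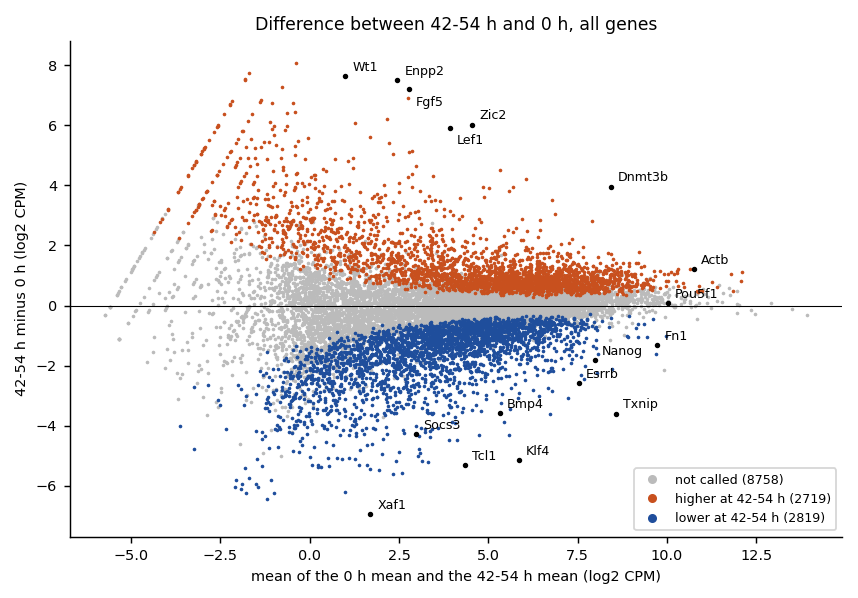
Each point is 1 of 14296 genes, with the mean of its 0 h mean and its day 2 mean (log2 CPM) on the x axis and the difference in log2 CPM, day 2 minus 0 h, on the y axis. Coloured points passed an adjusted p below 0.0001, 2719 above and 2819 below, and Fgf5 at 7.20 and Xaf1 at -6.94 are among the genes labelled near the upper and lower edges.

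The direction of the differences moved with the base composition of transcripts. Among the quintile of genes with the least GC (30.0% to 44.0%), 30.9% were called higher and 5.99% lower, with a median difference of 0.39, and among the quintile with the most GC (55.7% to 82.9%), 9.34% were higher and 32.8% lower, with a median of -0.44. After each library was centred along GC content, a processing alternative chosen after the data had been seen, the corresponding calls were 499 higher and 445 lower of 2836 genes at low GC and 615 and 599 of 2836 at high GC, and 5501 genes (38.5%) were called in all. Counts after this centring are given beside each gene group where one of them moved by over 1.5 times.

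**Figure D2:**
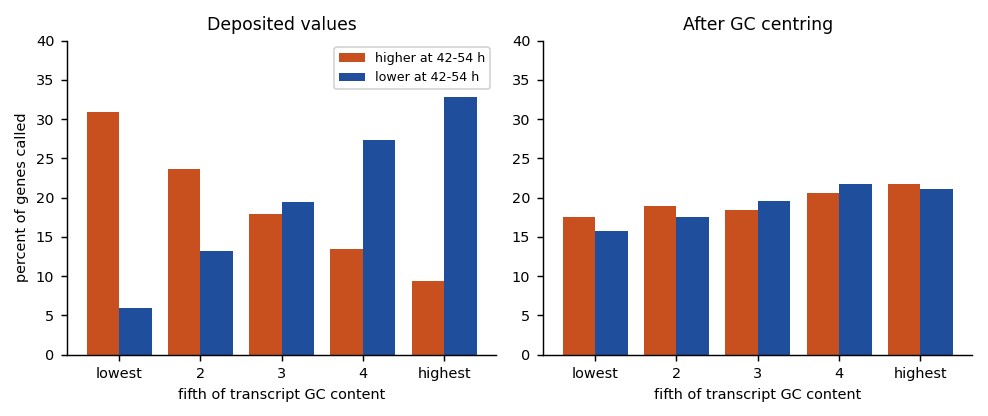
Genes were split into quintiles of transcript GC content on the x axis, and bars give the percent of each quintile called higher or lower at day 2, for the deposited values and after centring each library along GC. In the deposited values the share higher runs from 30.9% to 9.34% as GC rises and the share lower from 5.99% to 32.8%, while after centring the share higher and the share lower lie closer together in every quintile.

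The regulators of naive pluripotency were lower at day 2 as a group. Of 19 genes on the list, 16 fell, where 19.7% of all genes did, and 0 rose, with a median difference of -2.14 against 0.01 over all genes, and 16 and 0 were counted also after GC centring and after total-read scaling. The Krüppel-like factor Klf4 (chr4:55527143-55532466 of GRCm38), which holds cells in the naive state and is activated by STAT3, was at 8.40 and 8.46 log2 CPM at 0 h and between 2.93 and 3.59 (median 3.25) at day 2. This difference of -5.15 ± 0.17 (SE, adjusted p = 1.69e-19) left Klf4 35.4-fold lower, with no day 2 library within 4 log2 units of a 0 h library. Tcl1, a coactivator of AKT kinases, was at 7.01 and 6.99 at 0 h and between 0.86 and 2.84 (median 1.52) at day 2, and fell by more than Klf4, with a difference of -5.31 ± 0.22 (SE, adjusted p = 3.22e-17). Tbx3, a T-box factor that acts beside Klf4, went from 7.71 and 7.77 to values between 2.90 and 4.24 (median 3.31), a difference of -4.32 ± 0.23 (SE, adjusted p = 2.94e-15). Prdm14, which represses FGF receptor signaling and the de novo DNA methyltransferases, differed by -4.15 ± 0.18 (SE, adjusted p = 1.13e-16). These 4 differences were the largest on the list.

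Tfcp2l1, a CP2 family factor of the naive network, was at 8.80 and 8.71 at 0 h and between 5.27 and 6.27 (median 5.62) at day 2, and was 8.42-fold lower (difference -3.07 ± 0.16, SE, adjusted p = 1.80e-15). The orphan receptor Esrrb, which binds many of the same enhancers as OCT4 and SOX2, was at 8.89 and 8.77 at 0 h and between 5.99 and 6.69 (median 6.13) at day 2, and was 6.03-fold lower (difference -2.59 ± 0.18, SE, adjusted p = 7.39e-13). Zfp42, which encodes the naive marker REX1, was at 9.13 and 9.24 and then between 6.27 and 7.70 (median 6.88), and was 4.77-fold lower. None of these 3 genes overlapped between the groups, where 33.0% of all genes had all 6 day 2 libraries below both 0 h libraries. In each of the 3 the 54 h libraries were below the 42 h libraries of the same letter. The homeobox factor Nanog was at 8.79 and 8.98 at 0 h and between 6.95 and 7.36 (median 7.03) at day 2, a difference of -1.82 ± 0.10 (SE, adjusted p = 7.77e-15) that was 3.53-fold lower. Klf2 and Klf5 differed by -2.41 and -1.82, the nuclear receptor Nr5a2 by -2.14, Dppa3, which protects DNA from demethylation in the zygote, by -1.58, the cell adhesion molecule Pecam1 by -3.51 and the cell cycle factor Mybl2 by -1.06. Not called were Nr0b1, a corepressor bound by OCT4, at -0.01 ± 0.20 (adjusted p = 0.963), Fgf4, the FGF that ES cells make, at 0.16 ± 0.08 (adjusted p = 0.0867), and the homeobox gene Gbx2 at -0.29 ± 0.24 (adjusted p = 0.294). Gbx2 was at 5.54 and 5.65 at 0 h, at 6.18 and 6.29 by 42 h and then 4.30 and 4.32 by 54 h, so its day 2 libraries lay on both sides of the 0 h level.

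**Figure D3:**
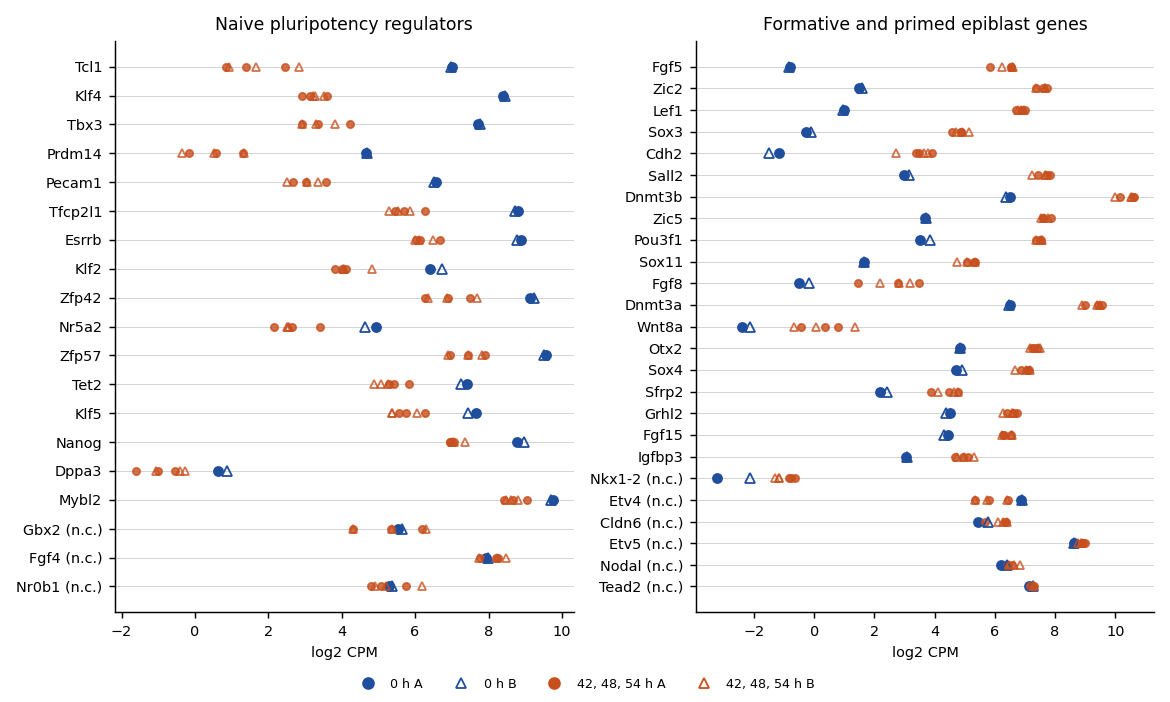
Log2 CPM (x axis) of every gene on the naive and the formative lists, 1 row per gene, with blue for 0 h and orange for 42, 48 and 54 h, filled circles for A and open triangles for B, and n.c. for genes not called. Blue lies to the right of orange in the 16 naive genes called and to the left in the 19 formative genes called, with the widest separations at -5.31 for Tcl1 and 7.20 for Fgf5.

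Because Klf2, Klf4 and Klf5 all fell, the 250 bases before the start of each gene were searched for the KLF box GGGNGTGG on both strands, and the bases around the first match are printed for the naive genes that hold one. Capitals mark the box or its reverse complement, and sequences are 5′ to 3′ on the strand of the gene, from RefSeq on GRCm38.p6.
Nanog (chr6:122707443-122707488, plus strand): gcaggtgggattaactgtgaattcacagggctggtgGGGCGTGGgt
Tfcp2l1 (chr1:118627848-118627927, plus strand): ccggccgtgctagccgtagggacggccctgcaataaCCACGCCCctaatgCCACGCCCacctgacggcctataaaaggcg
Zfp42 (chr8:43307041-43307120, minus strand): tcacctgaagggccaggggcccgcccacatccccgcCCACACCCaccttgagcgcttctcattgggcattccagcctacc
Mybl2 (chr2:163054427-163054506, plus strand): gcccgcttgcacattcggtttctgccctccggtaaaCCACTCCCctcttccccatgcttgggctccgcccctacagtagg
These 4 were the naive genes with a box among the 14 that had a promoter in the table, and all 4 were lower at day 2, as were 16 of 19 on the whole list. The first boxes began 10 bases before the start of Nanog, 61 before Tfcp2l1, 75 before Zfp42 and 172 before Mybl2. On the formative list 3 of 16 genes with a promoter held the box, Fgf5, Zic5 and Igfbp3. All 3 were higher at day 2, as were 19 of 25 on the whole list. These directions follow those of the lists, and a tie to the box was not tested. For comparison with the naive genes, the stretch upstream of Fgf5 is shown.
Fgf5 (chr5:98253934-98254009, plus strand): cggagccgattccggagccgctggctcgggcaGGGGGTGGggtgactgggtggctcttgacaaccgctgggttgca
Over all 10686 promoters 21.7% held the box, against 22.2% of 369 promoters of genes over 4-fold higher and 26.5% of 551 promoters of genes over 4-fold lower. A match in letters is a description of the window and was not tested as a binding site.

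Pluripotency genes shared by the naive and the later epiblast did not fall as a group. Of 17 genes, 6 rose and 1 fell, against 19% and 19.7% of all genes, and 10 were not called, with a median difference of 0.89. Pou5f1, whose product OCT4 is required in every pluripotent state, was at 9.88 and 10.08 at 0 h and between 9.79 and 10.51 (median 10.04) at day 2, a difference of 0.07 ± 0.14 (adjusted p = 0.656), and the 0 h libraries lay inside the range of the day 2 libraries. Sox2, the partner of OCT4 that is also a neural factor, was at 9.34 and 9.43 and then between 7.94 and 8.73 (median 8.45), and fell, with a difference of -1.02 ± 0.08 (SE, adjusted p = 3.66e-11). Its groups did not overlap, as in the 33.0% of all genes with all 6 day 2 libraries below both at 0 h. Lin28a and Lin28b, which block maturation of the let-7 microRNAs, differed by 1.41 and 1.86. The others called were the zinc finger factors Zfp281 (1.49) and Zscan10 (0.89), Rif1 (1.36), which controls replication timing, and the TGF-beta family ligand Gdf3 (1.15). Sall4 was at -0.05 ± 0.09 (adjusted p = 0.645), the NODAL coreceptor Tdgf1 at 0.03 ± 0.13 (adjusted p = 0.829), and Utf1, a chromatin protein of pluripotent cells, at 0.57 ± 0.19 (adjusted p = 0.0083).

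Genes of the formative and primed epiblast were higher at day 2 as a group. Of 26 genes listed, 25 were in the files, 19 rose, where 19% of all genes did, and 0 fell, with a median difference of 2.50, and after GC centring 21 rose and 0 fell. Fgf5 (chr5:98254184-98277030 of GRCm38), a ligand that marks the epiblast after implantation, was at -0.81 and -0.84 log2 CPM at 0 h and between 5.82 and 6.61 (median 6.53) at day 2, which was 147-fold higher (difference 7.20 ± 0.14, SE, adjusted p = 3.18e-24). The zinc finger factor Zic2, which opens enhancers of primed cells, was at 1.49 and 1.59 and then between 7.35 and 7.74 (median 7.62), 64.9-fold higher (difference 6.02 ± 0.11, SE, adjusted p = 4.20e-25). Lef1, a DNA-binding partner of beta-catenin, went from 0.98 and 0.95 to values between 6.71 and 7.02 (median 6.88), 60.1-fold higher. In Fgf5, Zic2 and Lef1 the gap between the groups was over 4 log2 units, and the spread among the 6 day 2 libraries stayed under 1 unit.

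Otx2, the homeobox factor that directs OCT4 to formative enhancers, was at 4.83 and 4.86 at 0 h and between 7.16 and 7.49 (median 7.36) at day 2, 5.63-fold higher (difference 2.49 ± 0.14, SE, adjusted p = 1.39e-14). The POU factor Pou3f1, which works with OTX2, differed by 3.81 ± 0.15 (SE, adjusted p = 5.72e-18), Sox3 by 5.04 ± 0.20 (SE, adjusted p = 9.45e-18) and Sall2 by 4.53 ± 0.17 (SE, adjusted p = 3.43e-18). Among the rest, the neural SoxC factors Sox11 and Sox4 differed by 3.49 and 2.18, Zic5 by 3.95, the epithelial enhancer factor Grhl2 by 2.10, the Wnt ligand Wnt8a by 2.50, the Wnt antagonist Sfrp2 by 2.14 and the insulin-like growth factor binding protein Igfbp3 by 1.90. The 6 members not called were Etv4 (-1.06 ± 0.30, adjusted p = 0.0032), Etv5 (0.26 ± 0.11, adjusted p = 0.0403), Tead2 (0.06 ± 0.07, adjusted p = 0.463), Nodal (0.26 ± 0.16, adjusted p = 0.158), Nkx1-2 (1.71 ± 0.53, adjusted p = 0.0057) and Cldn6 (0.58 ± 0.14, adjusted p = 5.42e-04). Etv4, an ETS factor induced by FGF signaling, was at 6.89 and 6.92 at 0 h and between 5.33 and 6.44 (median 5.77) at day 2, opposite in sign to the list. It was called lower when the 96 h libraries, whose duplicates lay far apart, were left out of the estimate of spread. With the 8 libraries fitted alone, with voom weights and at adjusted p below 0.05, 1 member of the list was also called lower. Etv4 was the only member with a negative difference.

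The de novo DNA methyltransferases were higher at day 2. On a list of 15 genes, 7 rose and 3 fell, against 19% and 19.7% of all genes, with a median of 0.67. Of its members, Dnmt3a and Dnmt3b are also on the formative list and Tet2 and Zfp57 on the naive list. The de novo methyltransferase Dnmt3b was at 6.52 and 6.37 log2 CPM at 0 h, with a day 2 median of 10.54 and a highest value of 10.61, 15.6-fold higher (difference 3.96 ± 0.09, SE, adjusted p = 6.02e-23). Its relative Dnmt3a was at 6.51 and 6.46 and then between 8.90 and 9.56 with a median of 9.41 (difference 2.81 ± 0.08, SE, adjusted p = 4.11e-21). For both genes every day 2 library was above every 0 h library by more than 1 log2 unit. Dnmt3l, the catalytically inactive cofactor of these enzymes, was higher by 0.88, while the maintenance methyltransferase Dnmt1 was at 0.04 ± 0.12 (adjusted p = 0.785) and its recruiter Uhrf1 at 0.24 ± 0.07 (adjusted p = 0.0029). Of the TET enzymes, which oxidise methylcytosine, Tet2 fell from 7.40 and 7.25 to values between 4.89 and 5.85 with a median of 5.26 (difference -2.03 ± 0.20, SE, adjusted p = 8.71e-10), while Tet1 was at 0.67 ± 0.22 (adjusted p = 0.0096) and Tet3 at 0.24 ± 0.21 (adjusted p = 0.305). Zfp57, which keeps methylation at imprints, was lower (-2.12) and its corepressor Trim28 higher by 0.83. The glycosylase Tdg, which removes oxidised methylcytosine, was higher by 1.11, Mbd3, a NuRD subunit, by 0.82 and the stress gene Gadd45g by 1.53, and Gadd45b was lower (-3.57).

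Components and targets of LIF signaling were mostly lower, where 19.7% of all genes fell and 19% rose. Of 16 genes 15 were in the files, 8 fell and 1 rose (8 and 2 after GC centring), with a median of -0.60, and 5 fell without the 0 h A library. Socs3, the feedback inhibitor that STAT3 induces, was at 5.12 and 5.12 log2 CPM at 0 h and between 0.27 and 1.86 (median 0.63) at day 2, 19.4-fold lower (difference -4.28 ± 0.19, SE, adjusted p = 1.15e-16). Bcl3, another STAT3 target, was at 4.11 and 4.08 and then between 0.49 and 1.22 (median 0.94), 9.27-fold lower. Both targets were below both 0 h libraries in all 6 day 2 libraries, as were 33.0% of all genes. The receptor genes moved less, with the LIF receptor Lifr at -0.86 and its partner Il6st, which encodes gp130, at -1.09. Stat3 itself differed by -1.20, the kinase Jak1 by -0.60, the serine kinase Pim3 by -1.14 and the feedback inhibitor Cish by -1.36. Ptpn11, the phosphatase SHP2 that links gp130 to ERK, was the gene that rose (0.73), a call lost under total-read scaling, where 0 rose and 10 fell. Lif itself was at -0.02 ± 0.18 (adjusted p = 0.933) and the target Junb at 0.50 ± 0.12 (adjusted p = 5.78e-04).

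On the FGF and ERK list of 22 genes, 9 rose and 3 fell, against 19% and 19.7% of all genes. The median was 0.41, and 12 rose and 2 fell after GC centring. Of its members, Fgf5, Fgf8, Fgf15, Etv4 and Etv5 are also on the formative list and Fgf4 on the naive list. Leaving out either 0 h library left 1 gene lower. Among ligands, Fgf8, a signal of the epiblast and streak, was at -0.52 and -0.16 at 0 h and between 1.46 and 3.48 (median 2.81) at day 2 (difference 2.99 ± 0.28, SE, adjusted p = 5.15e-10), and Fgf15 was higher by 2.03. Among receptors, Fgfr2 was higher by 1.60, Fgfr3 fell by 2.87 and Fgfr4 fell by 1.45 on the log2 scale, and Fgfr1, the main receptor of the epiblast, was at 0.19 ± 0.08 (adjusted p = 0.0452). The receptors therefore moved in opposite directions. Of the feedback genes that ERK induces, the phosphatases Dusp4 and Dusp6 were higher by 2.72 and 1.76 and the inhibitor Spry2 by 1.09. Others that ERK is known to induce did not pass, with Spry4 at 0.42 ± 0.17 (adjusted p = 0.0332), Etv5 and Etv4 as given above, and Dusp5 at -0.12 ± 0.13 (adjusted p = 0.407). The ETS factor Etv1 was higher by 1.90, the immediate early factor Egr1 by 1.22, and the adaptor Grb2 lower (-0.39).

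In the Nodal and Activin pathway, which keeps the epiblast from neural fate, 9 of 21 genes in the files rose and 5 fell. The shares over all genes were 19% and 19.7%. The inhibitor Lefty1, a direct target of the pathway, was at 5.16 and 5.35 at 0 h and between 6.90 and 7.83 (median 7.61) at day 2 (difference 2.29 ± 0.23, SE, adjusted p = 1.49e-09), while Lefty2 was at 0.47 ± 0.20 (adjusted p = 0.0398) and the ligand Nodal was not called. The activin antagonist Fst was higher by 3.22, the cofactor Foxh1 by 1.07, the corepressor Skil by 1.95, and the signal transducers Smad2 and Smad4 by 0.69 and 0.68. Among the lower genes were the activin subunit Inhbb (-3.89), the receptor Acvr1b (-1.43) and the proprotein convertases that cleave NODAL, Furin (-1.52) and Pcsk6 (-1.79).

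The BMP list held 19 genes in the files, of which 4 rose and 7 fell, with a median of -0.88, and 2 rose without the 0 h B library. Over all genes 19% rose and 19.7% fell. The ligand Bmp4, which acts with LIF to maintain ES cells, was at 7.13 and 7.08 at 0 h and between 3.33 and 3.82 (median 3.49) at day 2, 12.0-fold lower (difference -3.58 ± 0.22, SE, adjusted p = 8.78e-14). Bmp7 was at 3.65 and 3.56 and then between -0.98 and -0.09 (median -0.42), 16.8-fold lower (difference -4.07 ± 0.20, SE, adjusted p = 1.10e-15). The groups did not overlap for either ligand, as in the 33.0% of all genes with all 6 day 2 libraries below both at 0 h. Nor did they overlap for the secreted antagonist Nog, which fell as well (-2.66 ± 0.41, SE, adjusted p = 2.40e-06). The receptors moved the other way, with Bmpr1a higher by 0.88 and Bmpr1b by 2.39. Of the inhibitor of differentiation genes that BMP induces, Id1 and Id4 were lower (-1.16 and -1.82) and Id2 and Id3 higher (0.59 and 1.63). The inhibitory Smad6 was lower (-1.95).

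Of 36 Wnt pathway genes in the files, 12 rose and 9 fell, against 19% and 19.7% of all genes, with a median of 0.22. Among ligands, Wnt3, which the epiblast and visceral endoderm make before gastrulation, was at -2.10 and -1.50 at 0 h and between 0.87 and 2.28 (median 1.78) at day 2 (difference 3.46 ± 0.34, SE, adjusted p = 1.33e-09), and Wnt8a was higher as given above. Wnt11 fell from 1.23 and 1.23 to values between -4.26 and -2.21 with a median of -3.71 (difference -4.73 ± 0.45, SE, adjusted p = 6.45e-10). Its day 2 median lay near the level of 3 reads, so the size of this difference depends on the pseudocount of voom. Wnt6 and Wnt7b were also lower (-3.48 and -2.10). The ligands thus went in both directions, without overlap between the groups for Wnt3 or Wnt11. Of all genes, 31.9% had all 6 day 2 libraries above both 0 h libraries and 33.0% had all 6 below. Porcn, the acyltransferase needed for Wnt secretion, was lower (-2.51). Receptors that rose were Fzd1 (3.62), Fzd2 (2.17), Fzd3 (1.36), Fzd7 (1.60) and Fzd8 (3.03), and those that fell were Fzd5 (-1.37) and Fzd10 (-1.50). The repressor Tcf7l1 was higher by 0.85 and beta-catenin itself (Ctnnb1) by 0.63. The target Axin2, a common readout of Wnt signaling, was at -0.23 ± 0.21 (adjusted p = 0.326), Sp5 was at -1.56 ± 0.78 (adjusted p = 0.0784), and Cdx1, a homeobox target, was lower (-5.82).

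Of 27 genes for cadherins, junctions and the regulators of the epithelial to mesenchymal transition, 12 rose and 6 fell, with epithelial and mesenchymal genes in both directions. The shares over all genes were 19% and 19.7%. N-cadherin (Cdh2) was at -1.17 and -1.50 at 0 h and between 2.71 and 3.91 (median 3.56) at day 2, 28.3-fold higher (difference 4.82 ± 0.27, SE, adjusted p = 1.76e-14). E-cadherin (Cdh1) was at 9.07 and 8.91 and then between 9.46 and 9.84 with a median of 9.77 (difference 0.74 ± 0.08, SE, adjusted p = 1.41e-08). Both cadherins were therefore higher at day 2, by very different amounts. The epithelial splicing factor Esrp1 was higher by 2.78, the tight junction protein Ocln by 1.49 and Epcam by 0.62, whereas Tjp3 and Krt19 were lower (-2.37 and -2.27). Among the repressors of E-cadherin, Snai2 was higher by 2.69, Zeb1 lower (-1.25) and Snai1 at -1.70 ± 0.38 (adjusted p = 2.89e-04), and Zeb2, with 3 reads in the 0 h libraries together, was 35.9-fold higher (95% counting interval 12.2 to 175). Vim, an intermediate filament of mesenchymal cells, was at -0.11 ± 0.22 (adjusted p = 0.666). Fibronectin (Fn1), a matrix protein, fell from 10.55 and 10.23 to values between 8.33 and 9.38 (median 9.23).

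Genes of the actin cytoskeleton, many of them targets of SRF or YAP, rose more often than they fell. Of 29 genes 16 were higher and 4 lower, against 19% and 19.7% of all genes. The median was 0.82, and 13 and 6 were counted under total-read scaling. Leaving out either 0 h library left 1 lower. Actb and Actg1, the cytoplasmic actins, were higher by 1.22 and 1.04, the myosin light chain Myl9 by 3.29, the actin-binding protein Tagln by 2.17 and Srf itself by 0.82. The YAP targets Ccn2 and Ccn1 were higher by 2.15 and 0.86, Thbs1 by 2.44 and Amotl2 by 0.90, and Ankrd1 was at -1.11 ± 0.66 (adjusted p = 0.138). Lower members were S100a6 (-1.74), Tagln2 (-1.29), the receptor kinase Axl (-1.17) and Anxa3 (-0.64).

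Among G1 regulators 10 of 25 rose and 5 fell, against 19% and 19.7% of all genes. Cyclin D2 (Ccnd2) was at 0.27 and -0.23 at 0 h and between 2.26 and 3.25 (median 2.63) at day 2 (difference 2.67 ± 0.22, SE, adjusted p = 2.43e-11), cyclin D1 (Ccnd1) was higher by 0.90 and cyclin D3 (Ccnd3) lower (-1.50). The growth regulator Myc was at 4.55 and 4.43 and then between 7.24 and 7.58 (median 7.35), 7.35-fold higher (difference 2.88 ± 0.28, SE, adjusted p = 8.20e-10), and Mycn was higher by 1.20. The D cyclins therefore did not move together. Cyclins E (Ccne1 0.75, Ccne2 1.13), Cdk4 (0.85), the phosphatase Cdc25a (0.69) and the kinase inhibitor Cdkn1c (1.89) were higher, and E2f1 (-1.13), E2f2 (-2.44) and the pocket protein Rbl2 (-1.43) lower. The kinase inhibitors Cdkn1a and Cdkn1b were at -1.07 ± 0.22 (adjusted p = 1.14e-04) and -0.20 ± 0.14 (adjusted p = 0.194).

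Ccnd3 was also 1 of 4 genes, among 126 with a promoter that were on any list, called and over 2-fold, to hold the letters of an estrogen-related receptor core, AAGGTCA on either strand, in the 250 bases before its start. The other 3 were Ajuba, Pim3 and Stra8. Ccnd3, Pim3 and Stra8 fell and Ajuba rose (1.53). Only genes called and over 2-fold were searched, so each had to differ, and a link to Esrrb was not tested. The stretches of all 4 are shown, with the core or its complement TGACCTT in capitals, from RefSeq on GRCm38.p6.
Ccnd3 (chr17:47504918-47504996, plus strand): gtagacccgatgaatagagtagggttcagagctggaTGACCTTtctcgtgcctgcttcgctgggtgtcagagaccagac
Pim3 (chr15:88861987-88862065, plus strand): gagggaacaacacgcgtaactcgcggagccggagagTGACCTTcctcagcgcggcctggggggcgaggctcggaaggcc
Stra8 (chr6:34920717-34920795, plus strand): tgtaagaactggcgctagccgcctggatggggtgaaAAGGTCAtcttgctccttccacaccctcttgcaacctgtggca
Ajuba (chr14:54577691-54577769, minus strand): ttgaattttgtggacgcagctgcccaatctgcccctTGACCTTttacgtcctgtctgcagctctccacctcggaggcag
The core began 97 bases before the start of Ccnd3, 171 before that of Pim3, 72 before that of Ajuba and 195 before that of Stra8. Stra8, a germ cell gene induced by retinoic acid, fell from 3.24 and 3.37 to values between -2.14 and -1.42 with a median of -1.79 (difference -5.07 ± 0.65, SE, adjusted p = 1.25e-07). Of all 10686 promoters 2.69% held the core, against 4.72% of those of genes over 4-fold lower (26 of 551) and 2.17% of those of genes over 4-fold higher (8 of 369). For the STAT letters TTCCNGGAA the shares were 0.955%, 1.09% and 0.271%, and for the OTX letters TAATCC 4.91%, 5.08% and 4.34%, in the order all, lower and higher. For the LEF and TCF letters CTTTGAT they were 2.13%, 1.27% and 2.98% in that order. The median GC content of the 3 sets of promoters was 60.4%, 59.6% and 61.2%.

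Among genes of energy metabolism those of glucose use were called most often, where 19% of all genes rose and 19.7% fell. Of 32 glycolysis and hypoxia genes 4 rose and 11 fell, with 1 and 16 under total-read scaling, and 1 rose when either 0 h library was left out. The hypoxia-induced growth factor Vegfa was at 6.37 and 6.26 at 0 h and between 2.28 and 3.73 (median 2.92) at day 2 (difference -3.33 ± 0.15, SE, adjusted p = 1.81e-16). The glucose transporters Slc2a1 and Slc2a3 were lower (-1.03 and -1.62), as were hexokinase Hk1 (-2.48), phosphofructokinase Pfkp (-2.46), the aldolase Aldoc (-2.44) and the enolase Eno2 (-2.19). The lactate transporters Slc16a1 and Slc16a3 and lactate dehydrogenase Ldha were higher by 0.99, 1.42 and 0.66, and Gapdh was at 0.05 ± 0.13 (adjusted p = 0.761). Ndrg1, a stress gene induced by low oxygen, was lower (-3.35), and the hypoxia targets Bnip3 and Pdk1 were at -0.02 ± 0.14 (adjusted p = 0.894) and -0.21 ± 0.07 (adjusted p = 0.0159). Of 81 nuclear genes for oxidative phosphorylation subunits 1 rose and 7 fell (median -0.05), of 17 mitochondrially encoded genes 0 rose and 1 fell (median 0.01, and 3 fell after GC centring), and of 84 cytosolic ribosomal protein genes 2 rose and 0 fell (median 0.19). All of these shares were far below the 38.7% called among all genes. The ribosomal protein genes summed to 57510 and 61527 CPM at 0 h and 56869 to 101267 CPM at day 2. For oxidative phosphorylation the sums were 10564 and 11259 CPM, then 8898 to 15272 CPM. Those of the mitochondrially encoded genes were 45537 and 50958 CPM, then 43117 to 61436 CPM. Whether this spread between day 2 libraries kept members from being called was not tested. The 31 genes of cholesterol and fatty acid synthesis were split, with 7 higher and 6 lower, 8 and 3 after GC centring and 4 and 8 under total-read scaling, so the balance of this list turned with the scaling. The corresponding counts were 4 and 2 without the 0 h A library, 4 and 1 without the 0 h B library, and 3 were lower without the 42 h A or the 54 h B library.

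**Figure D4:**
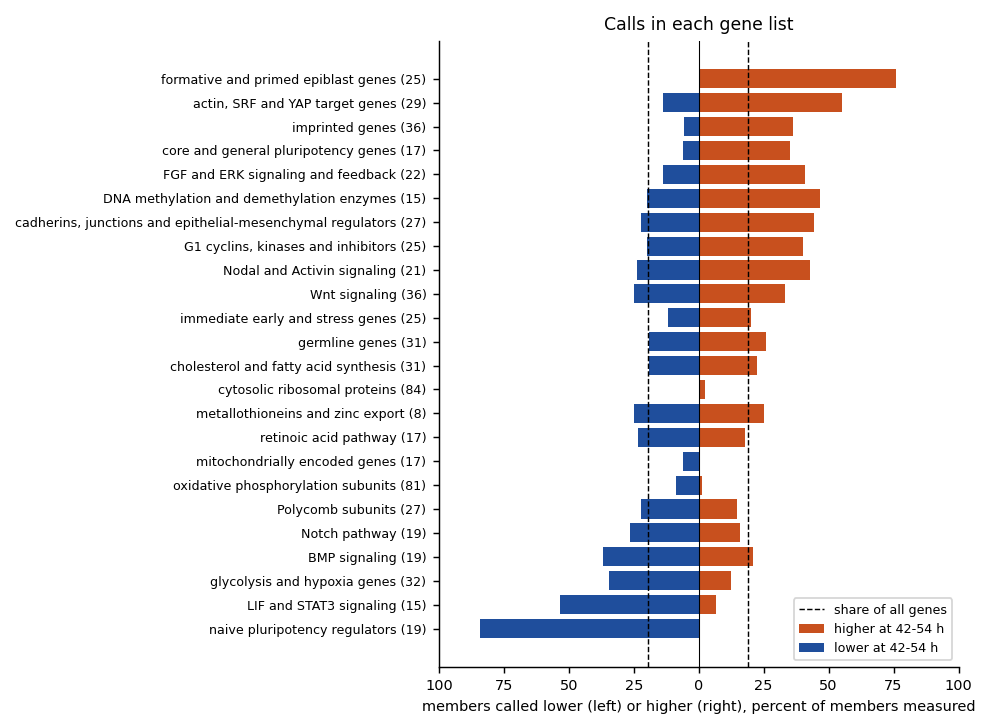
For each gene list but the 2-cell-like state, of which 2 genes were measured, the bar to the right gives the percent of its members in the files called higher at day 2 and the bar to the left the percent called lower, with dashed lines at the shares of all genes, 19% and 19.7%. The naive list, with 16 of 19 lower, and the formative list, with 19 of 25 higher, reach furthest past the dashed lines, and the ribosomal protein and oxidative phosphorylation lists stay inside them.

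Imprinted genes rose more often than they fell, with 13 higher and 2 lower of 36, against 19% and 19.7% of all genes. After GC centring 14 and 4 were counted, and 11 and 5 under total-read scaling. Magel2, of the Prader-Willi region, was at -0.35 and -0.64 at 0 h and between 2.48 and 3.80 (median 3.41) at day 2 (difference 3.78 ± 0.19, SE, adjusted p = 2.21e-15), the calcitonin receptor Calcr was higher by 4.02, the Notch-like ligand Dlk1 by 2.50, the translation regulator Impact by 2.08, Cdkn1c by the amount given above and Peg3 by 1.60. The transporter Slc22a18 was lower (-3.63), as was Sgce (-1.31), while Igf2, H19 and Meg3 were at -0.10 ± 0.17 (adjusted p = 0.619), -1.69 ± 0.38 (adjusted p = 3.32e-04) and 0.25 ± 0.14 (adjusted p = 0.106). Of 31 germline genes 8 rose, among them Dazl (1.33), Sycp1 (1.79) and Slc25a31 (2.46), and 6 fell, among them Hormad2 (-2.19) and Piwil2 (-0.97), with 5 higher without the 0 h A library and 2 lower without the 0 h B library. The germline list shares Prdm14 and Dppa3, both lower as given above, with the naive list. Polycomb subunits gave 4 higher and 6 lower of 27, near the 19% and 19.7% of all genes. The catalytic subunits Ezh2 and Ezh1 were at 0.29 ± 0.07 (adjusted p = 5.96e-04) and -1.25, with Bmi1 (1.66) and Kdm2b (1.40) higher and Phf19 (-1.65) lower.

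In the Notch pathway 3 of 19 rose and 5 fell, where 19% of all genes rose and 19.7% fell. The ligand Dll1 was at 1.71 and the receptors Notch1 and Notch4 at -1.64 and -3.59. Retinoic acid genes gave 3 higher and 4 lower of 17, with the receptors Rxrg at 3.26 and Rxra at -1.15 and the binding protein Crabp1 at -1.97. After GC centring both of these lists were at 4 higher and 4 lower, and without the 0 h B library 3 Notch genes were lower and 1 retinoic acid gene higher. Of 8 genes for metallothioneins and zinc transport 2 rose and 2 fell, with Mt2 at 1.32 and Mt1 at 0.31 ± 0.22 (adjusted p = 0.203). Of 25 immediate early and stress genes 5 rose and 3 fell (1 when either 0 h library was left out), and 8 rose and 2 fell after GC centring, with Jun at 1.37, Fos at -1.04 ± 0.22 (adjusted p = 1.35e-04) and Egr2, which had 0 reads at 0 h, at least 4.95-fold higher on a floor of 3 reads per library. Of 20 genes listed for the 2-cell-like state 2 were in the files, and Eif1a was higher by 0.98.

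Beyond the lists, the 12 largest differences in each direction among genes whose higher group averaged 3 log2 CPM or more, the 6 largest in CPM and the 4 largest among noncoding genes were picked out by rule. Among those higher, the sialyltransferase St6gal2 had 2 reads in the 0 h libraries together, too few to rank it among the others, and was 307-fold higher (95% counting interval 84.9 to 2538). The Wilms tumour factor Wt1 was at -1.65 and -4.01 at 0 h and between 4.52 and 5.06 (median 4.78) at day 2 (difference 7.64 ± 0.38, SE, adjusted p = 8.59e-16), and Enpp2, the enzyme that makes lysophosphatidic acid, was at -0.92 and -1.68 and then between 6.01 and 6.32 with a median of 6.23 (difference 7.50 ± 0.14, SE, adjusted p = 1.73e-24). For both, the lowest day 2 library was more than 4 log2 units above the 0 h libraries. Wt1 had 7 reads in the 0 h A library and 1 in the 0 h B library. The size of its difference therefore rests on few reads at 0 h. Vrtn, a regulator of vertebral number, differed by 6.91, the guidance molecule Sema6a by 6.23, Slc35d3 by 6.09, the hyaluronan synthase Has2 by 5.61, the insulin receptor substrate Irs4 by 5.43 and Zfp608 by 5.15.

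Downward, Xaf1, an interferon-induced gene of apoptosis, was at 5.20 and 5.13 at 0 h and between -2.38 and -1.06 (median -1.87) at day 2, 123-fold lower (difference -6.94 ± 0.38, SE, adjusted p = 6.13e-15). Igsf21 differed by -5.60, the retrieval receptor Kdelr3 by -5.58, Gprc5a, an orphan receptor, by -5.48, Crtac1 by -5.43, Ly6g6e by -5.33, the liver glycogen phosphorylase Pygl by -5.30, the citrate transporter Slc13a5 by -5.30, the peptide transporter Slc15a1 by -5.19, and Serpinb6c, 1 of a family of close copies among which reads can be split, by -6.22. Slc13a5 (chr11:72241989-72267222) and Xaf1 (chr11:72301629-72313733) lie close together on GRCm38.

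The largest losses in CPM were those of Txnip, which restrains glucose uptake and binds thioredoxin, from a mean of 1319 to 109 CPM, with Slc2a3, Fn1, Zfp57, the helicase Eif4a2 (-1.04) and Zfp42. Txnip was at 10.34 and 10.39 log2 CPM at 0 h and between 6.49 and 7.04 (median 6.75) at day 2 (difference -3.60 ± 0.25, SE, adjusted p = 8.70e-13). Gm15441 is annotated antisense to Txnip (chr3:96555765-96566801 against chr3:96557957-96561883) and differed by -5.18, and the noncoding Gm17035 (chr15:66929607-66931107) lies antisense within Ndrg1 and differed by -5.42. Gm17035 had 91 reads in the 0 h libraries together and 9 at day 2, from 0 to 4 per library. The size of its difference thus depends on the pseudocount of voom. The study describes strand-specific libraries, but the strand setting of the authors' counting is not given in the sources used here. Whether reads of these antisense genes were counted apart from those of their partners is thus not known. The largest gains in CPM were the nucleolar proteins Ncl (from 3020.2 to 6483 CPM) and Npm1 (2463 to 5090.3 CPM), the chromatin-associated Ptma (3221 to 5755 CPM) and Set (1060.2 to 2451 CPM), Actb (1132 to 2644 CPM) and the chaperone Hspa8 (1863 to 3241 CPM). Several of these have many processed copies in the genome among which reads can be split.

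Among noncoding genes, AI504432 was higher by 5.21 and C130071C03Rik, a lincRNA near Mef2c, by 5.02, from 4 and 7 reads in the 0 h libraries together. The processed transcript 4833422M21Rik, from 3 reads, was 61.5-fold higher (95% counting interval 20.9 to 299), and 4930426D05Rik, from 1 read, was 65.3-fold higher (95% counting interval 11.6 to 2591). Lower were Gm20412 (-6.03), with 146 reads in the 0 h libraries together and 11 at day 2, and Gm807 (-5.31), with 354 and 42. The day 2 libraries held from 0 to 5 reads of Gm20412, so the size of its difference depends on the pseudocount of voom.

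Markers of other lineages were checked in the same libraries. Of 8 ES cell markers 7 fell, Pou5f1 being the other, and their summed level was 3412 and 3621 CPM in the 0 h libraries and 1214 to 2007 CPM at day 2. Of 8 markers of the epiblast after implantation 7 rose, Etv4 being the other, and their sum was 260 and 262 CPM at 0 h and 1878 to 2538 CPM at day 2. All but 1 gene of each marker list moved as the label epiblast-like implies, where 19.7% of all genes fell and 19% rose. Both marker lists share all their genes with the lists described above, so they give no separate support for the label. Streak and mesoderm markers summed to 20.4 CPM in both 0 h libraries and 23.3 to 39.6 CPM at day 2, with 2 of 9 higher (Fgf8 and Wnt3) and 1 lower (Mesp2, -2.29), and the defining Brachyury gene T was at -1.17 and -2.13 log2 CPM at 0 h and between -2.59 and -0.11 (median -1.45) at day 2, with a difference of 0.34 ± 0.37 (adjusted p = 0.423). Neuroectoderm markers summed to 42.3 and 47.4 CPM at 0 h and 48.7 to 75.5 CPM at day 2, with 4 of 8 higher, among them Sox1 (1.64) and Zic1, which had 0 reads at 0 h and was at least 6.54-fold higher, and with Nes at 0.50 ± 0.14 (adjusted p = 0.0025). Of the 8 neuroectoderm markers 4 averaged under 1 CPM in both groups, as did 4 of the 9 streak and mesoderm markers. The streak markers Mesp1, Tbx6 and Msgn1 and the endoderm markers Sox17, Afp and Ttr were not among the genes analysed here.

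The summed levels of several marker lists of other cells were lower at day 2, and of all genes 19% rose and 19.7% fell. Endoderm markers summed to 136 and 147 CPM at 0 h and 30.5 to 50.6 CPM at day 2, with 4 of 11, Lama1 (-3.71), Sox7 (-3.41), Pdgfra (-2.19) and Col4a1 (-1.60), lower, Dab2 (2.76) higher, and Foxa2, with 0 reads at 0 h, at least 1.25-fold higher. Markers of fibroblasts, which serve as feeder cells in many ES cell cultures, summed to 53.6 and 55.7 CPM at 0 h and 13.1 to 28.3 CPM at day 2, with Col1a1 (-1.37), Thy1 (-1.87) and Pdgfrb (-2.84) lower of 9 and Dcn, with 0 reads at 0 h, at least 10.5-fold higher. Trophoblast markers summed to 40.3 and 42.0 CPM at 0 h and 23.9 to 35.6 CPM at day 2, with 2 of 8, Tfap2c (-3.34) and Plet1 (-2.96), lower. Blood and endothelial markers summed to 96.6 and 99.6 CPM at 0 h and 19.6 to 23.9 CPM at day 2, a sum that includes Pecam1, which ES cells also express, with 4 of 7 higher, among them Tal1 (4.34) and Etv2 (2.29). Whether cells of these kinds were present in the 0 h cultures, and their part in the differences above, was not tested.

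Within day 2, few genes moved past the threshold in 12 h. From 42 to 54 h, 392 genes (2.74%) were called, 286 (2%) higher and 106 (0.741%) lower at 54 h, of which 253 changed over 2-fold. From 42 to 48 h limma called 0 genes, with 2621 at an unadjusted p below 0.05, and from 48 to 54 h it called 1, with 1956. Tcl1 and Zfp42, already lower than at 0 h, went on falling, with Tcl1 at 2.47 and 2.84 at the 42 h point, 1.38 and 1.67 at 48 h and then 0.86 and 0.92 by 54 h, a difference of -1.76 ± 0.27 (adjusted p = 3.86e-05) from 42 to 54 h. Zfp42 went from 7.48 and 7.70 to 6.27 and 6.35, a difference of -1.28 ± 0.17 (adjusted p = 5.80e-06). Gbx2, which is not separated from 0 h at day 2 as a whole, differed by -1.93 ± 0.30 (adjusted p = 3.86e-05). Klf4 and Nanog, by contrast, had differences of -0.45 ± 0.21 (adjusted p = 0.0953) and -0.23 ± 0.12 (adjusted p = 0.145), neither past the threshold. Brachyury (T) was at -2.59 and -2.11 at 42 h and -0.16 and -0.11 at 54 h, with a difference of 2.22 ± 0.45 (adjusted p = 6.65e-04) that did not pass. These counts rest on few libraries. Without the 54 h A library 51 genes were called, without the 42 h B library 61, without the 54 h B library 63 and without the 42 h A library 629, and a fit of the 8 libraries alone called 0, with 6494 at an unadjusted p below 0.05.

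Over the whole course, day 2 held the highest mean of Dnmt3b, 10.58 log2 CPM at 54 h, against 8.57 at 24 h and 7.47 at 120 h, and of Dnmt3a, 9.52 at 42 h. Fgf5 was at 3.26 at 24 h and had its highest mean later, 8.08 at 108 h. Klf4 was at 5.68 at 24 h, had its lowest mean, 2.42, at 72 h and was back at 5.94 at 120 h. Tcl1 was likewise lowest at 72 h, with 0.32, and at 4.09 at 120 h. The highest mean of T, 6.76, came at 96 h, the time point whose A and B libraries lay farthest apart of all 21 (median 0.407 over all genes). These means are of 2 libraries per time point and are given as a description.

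**Figure D5:**
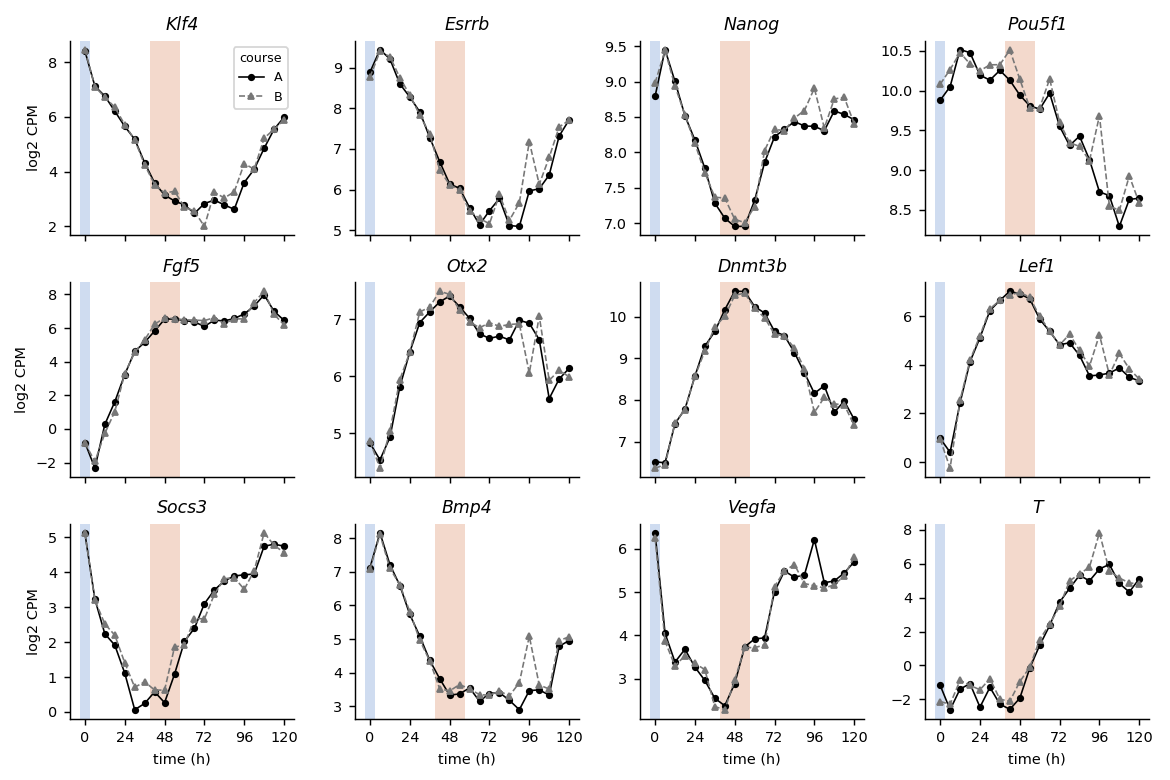
Log2 CPM (y axis) of 12 genes against hours of differentiation (x axis, 0 to 120 h), with a line for A and a line for B and shading over the time points compared. Klf4, Esrrb, Nanog, Socs3, Bmp4 and Vegfa lie lower at 42, 48 and 54 h than at 0 h, Fgf5, Otx2, Dnmt3b and Lef1 lie higher, Pou5f1 is near its 0 h level, and T stays low through day 2 and is highest at 102 h in A and at 96 h in B.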

How the data were processed

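Poly-A RNA from 8 of 42 libraries was compared, 2 at 0 h and 6 at 42, 48 and 54 h, grouped by the labels. According to the study's methods, the authors used Trim Galore! for trimming, TopHat2 for alignment to mm10 and HTSeq for counting on GENCODE vM2 genes, kept genes above 1 CPM in at least 2 samples, normalized with edgeR and applied voom. Versions and the strand setting of counting are not given in the sources used here. The deposited values are log2 CPM of 14296 genes. Inverting voom gave whole reads for every value, with a largest distance of 2.91e-08 from an integer.

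Differences were tested with limma 3.58.1 in R 4.3.3 (lmFit, eBayes with a trend) on the deposited values, with a factor of 21 time points over all 42 libraries, which left 21 residual degrees of freedom, and the contrast of the mean of 42, 48 and 54 h against 0 h. The Benjamini-Hochberg adjusted p had to be below 0.0001. Without a statement beyond biological duplicates on where A and B were split, p-values measure the spread between these libraries. Counting intervals and floors cover counting error only, and no pseudocount was added beyond that of voom.

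The members and gene lists were chosen with earlier results of these data known. Genes named beyond the lists were, per direction, the 12 largest log2 differences among genes whose higher group averaged 3 log2 CPM or more, the 6 largest CPM differences and the 4 largest noncoding differences with a mean of at least 0, each called and separated in all libraries. Other genes were named as members of the lists. Several lists share members, so their counts are not independent of each other. Of 14296 genes 14177 matched GENCODE vM21 on GRCm38, used for GC, biotype and coordinates, and 119 did not. Promoters came from RefSeq on GRCm38.p6. Scripts (Python 3.11.15, pandas 2.3.3) were tested on simulated data.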

Additional observations from a re-analysis of the deposited data

Results flagged for a closer look

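Of 269 genes named, 25 differed between 42 h and 54 h past the threshold of limma, where 392 of all genes (2.74%) did. Over all genes the fit of the 8 libraries alone called 0 (6494 at an unadjusted p below 0.05), and 51, 61 and 63 were called without the 54 h A, the 42 h B and the 54 h B library and 629 without the 42 h A library, so these calls rest on single libraries and on the pooled spread. Lower at 54 h were Inhbb (-2.15), Gbx2 (-1.93), Tcl1 (-1.76), Gadd45g (-1.59), Prdm14 (-1.57), Zfp42 (-1.28), Zfp57 (-0.94), Dnmt3l (-0.92), Sox2 (-0.66), Fgf4 (-0.61) and Dnmt3a (-0.57), as differences of 54 h minus 42 h in log2 CPM. Of the genes of pluripotency and DNA methylation in this group, Sox2 and Prdm14 had been higher at 0 h than at both times, and Dnmt3a and Dnmt3l were below their 42 h level at 54 h while still called higher than at 0 h. Higher at 54 h were Krt19 (1.85), Col1a1 (1.80), Dab2 (1.68), Nes (1.45), Tagln (1.42), Vegfa (1.40), Meg3 (1.30), Eno2 (1.26), Ndrg1 (1.25), Zfp608 (1.22), Esrp1 (0.76), Impact (0.76), Slc2a1 (0.71) and Acvr1b (0.69). The glucose and hypoxia genes Vegfa, Eno2, Ndrg1 and Slc2a1 were thus nearer their 0 h level at 54 h than at 42 h.

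In 14 of the 269 named genes 1 of the 6 day 2 libraries lay apart from the other 5, with its gap to the nearest library over 0.625 of the range of the 6. The rule flags about 1 in 20 groups of independent libraries. These libraries come from 3 time points of courses A and B, so the number that chance gives here is not known. The 42 h B library was the one apart for Klf2 (0.710 of the range), Nanog (0.708), Pdgfrb (0.707), Tdgf1 (0.667), Bmpr1a (0.658), Thbs1 (0.650), Cdh1 (0.645), Spry2 (0.644), Egr1 (0.629) and Il6st (0.628). The 42 h A library was apart for Col4a1 (0.815) and Lefty1 (0.668), and the 54 h B library for Dusp5 (0.817) and Cdkn1a (0.632). The A and B libraries of 42 h were the farthest apart of the 3 pairs at day 2, and the part of this in these values was not tested.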

How the results depend on the processing

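The count of 5538 genes rested on the 2 libraries at 0 h and on the pooled estimate of spread. A fit of the 8 libraries alone called 3036 genes (1457 higher, 1579 lower), the threshold of adjusted p below 0.05 called 9742 (4914 and 4828), and a test against a 2-fold difference (limma treat) called 1105 (464 and 641). Leaving out 1 library at a time gave 3529 to 5471 genes, 1727 to 2708 higher and 1802 to 2763 lower, with the lowest counts without a 0 h library, where the remaining one is assumed to vary like the other groups, and 2563 to 3284 past 2-fold. Voom weights (5398), quantile normalization (4961), log2 of CPM + 1 (5624), a filter on low genes (5250), total-read scaling (5522, of which 33.4% were higher, against 49.1% with the authors' scaling) and each time point alone (4580 at 42 h, 4349 at 48 h, 4114 at 54 h) stayed within 1.5 times. GC centring gave 5501, and leaving both 96 h libraries out of the spread gave 6112. These last settings were added after the data had been seen.

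From 42 to 54 h, 392 genes were called in the fit of all libraries, 0 in the fit of the 8 libraries alone, 591 with a replicate block, 4686 at adjusted p below 0.05, 682 without the 96 h libraries, and 51 to 629 when 1 library was left out. Deviations of libraries with the same letter correlated between -0.030 and 0.197 over the 6 pairs of time points, and not every pair was over 0.1, so the letters were not taken to pair the libraries. With A and B as a replicate block 6079 genes were called between 0 h and day 2 (3087 higher, 2992 lower), and of 228 named genes called 0 were lost.

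Of these 228 named genes no setting turned the direction. GC centring lost 8 calls (Axl, Ccne2, Col1a1, Dazl, Fgfr4, Hspa8, Id2 and Pim3), total-read scaling 12 (Amotl2, Ccn1, Ctnnb1, Epcam, Foxa2, Hspa8, Id2, Ldha, Ptpn11, Slc16a1, Smad4 and Tcf7l1), quantile normalization 24, leaving out the 0 h A library 35 and the 0 h B library 34. Over all settings 12 to 16 genes of the naive list were called lower and 18 to 22 of the formative list higher. With 3 reads at 0.076 to 0.131 CPM, levels below that at 0 h were not measurable, and the 2 libraries at 0 h limit the precision of each difference.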

Other observations

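Of 505 genes on the X chromosome, 156 (30.9%) were called higher at day 2 and 45 (8.91%) lower, with a median difference of 0.34, against 18.7% and 20.2% of 13650 autosomal genes, whose median was 0.0021. Transcripts of X genes have a median GC content of 45.7%, against 50.1% for autosomal genes. Within the quintile of lowest GC the shares higher were 37.3% of 204 X genes and 30.6% of 2613 other genes. In the fourth quintile 15.3% of 72 X genes were higher and 16.7% lower, against 13.4% and 27.7% of 2763 other genes. After GC centring 144 X genes were higher and 59 lower, with a median of 0.19. Of the autosomal genes 2613 were then higher and 2652 lower, with a median of 7.7e-04. The difference between the X and the autosomes was not tested.

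Among noncoding genes, 8 of 225 antisense genes were higher and 23 lower, 16 of 200 lincRNAs were higher and 29 lower, and 14 of 140 processed transcripts were higher and 25 lower, against 2631 and 2706 of 13176 protein-coding genes. Processed pseudogenes had the opposite balance, with 17 of 247 higher and 3 lower, and can share reads with their parent genes. Of 40 small nucleolar RNA genes 5 were higher and 1 lower. No difference between these classes was tested.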
